A study of Caenorhabditis elegans with 4 samples.

Results

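The insulin signalling core of Caenorhabditis elegans is described here as 10 genes, from the receptor gene daf-2 to the transcription factor gene daf-16. They were chosen by name, from the insulin receptor to FOXO, and all 10 were found by WormBase identifier among the 20392 genes of the count table. The other members are ist-1, age-1, aap-1, daf-18, pdk-1, akt-1, akt-2 and sgk-1. Total RNA was sequenced from first-stage (L1) larvae of 2 genotypes, with 2 libraries each. The mutant larvae were lsm-8-/-, from strain GW1125, in which the allele xe17 on chromosome IV holds a red marker (myo2p::mcherry with the unc54 3'UTR) and is kept over the balancer nT1[qIs51], a IV;V translocation with a green marker. The wild-type larvae came from strain GW1 / N2 (Bristol). Larvae of both genotypes hatched without food for 16 h, were sorted alike for L1 size and a pharynx that was not green, and were fed for 2.5 h before extraction. The mutant group therefore rests on 1 allele in 1 strain, and its larvae descend from mothers that carried the balancer. The labels do not say whether replicate libraries were grown as separate cultures, so p-values measure the spread between these libraries, which may be technical.

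In the worm, insulin-like peptides bind DAF-2, a receptor tyrosine kinase. The receptor activates the phosphoinositide 3-kinase made of AGE-1 and AAP-1, whose lipid product recruits PDK-1, AKT-1 and AKT-2 to the membrane, and the lipid phosphatase DAF-18 removes that lipid. AKT kinases phosphorylate the FOXO factor DAF-16, which then stays out of the nucleus, so DAF-16 acts when the pathway is quiet. The pathway is known for its part in dauer formation, lifespan and the arrest of starved L1 larvae, which need DAF-16 to survive without food. A change in transcript level says nothing of phosphorylation or of where DAF-16 is in the cell, and neither was measured.

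Library totals ran from 90749329 to 101230177 counts in the mutant and from 50755251 to 54419838 in wild type, and each member had at least 1955 counts in every library. Transcripts of the targeted gene lsm-8 stood at 3.25 and 3.73 CPM (a gene's share of its library's counts, scaled by TMM) in mutant libraries, against 15.4 and 15.9 CPM in wild-type libraries. Its log2 fold change, mutant over wild type, was -2.17 (SE 0.11, adjusted p = 3.85e-11). The adult collagen gene col-19 had 8 and 14 counts in mutant libraries and 2 and 0 counts in wild-type libraries, so this adult marker was near 0 in both groups. Since whole larvae were sequenced, fewer cells of a type and less RNA per cell cannot be told apart in any of the values that follow.

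Transcripts of ist-1, akt-1 and akt-2 were called lower in the mutant (adjusted p under 0.05) under each of 13 alternative settings. Those of daf-16 were called higher under each. Of the 10 members, 7 fell (daf-2, ist-1, aap-1, pdk-1, akt-1, akt-2 and sgk-1), 1 rose (daf-16) and 2 did not pass the test (age-1 and daf-18), at an adjusted p under 0.05 over all genes tested. Across the 16771 genes tested, 28.2% were called, 13.5% higher and 14.8% lower. Well-counted genes were called more often, and among the 3691 genes whose mean lay within the members' range of CPM the share was 44.9%, with 22.3% higher and 22.6% lower. The members' median log2 fold change was -0.22, against -0.01 for all genes tested. The sum over the 10 genes was 885 and 904 CPM in mutant libraries, against 1101 and 1076 CPM in wild-type libraries. All changes were under 2-fold, from 1.64-fold lower for akt-1 to 1.61-fold higher for daf-16. The 2 mutant values lay outside the 2 wild-type values for each of the 10 members, as they did for 62.8% of all genes tested. Leaving out 1 library gave 5 calls without mutant replicate 1 and 6 without any other, against 8 with all 4 libraries.

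**Figure D1:**
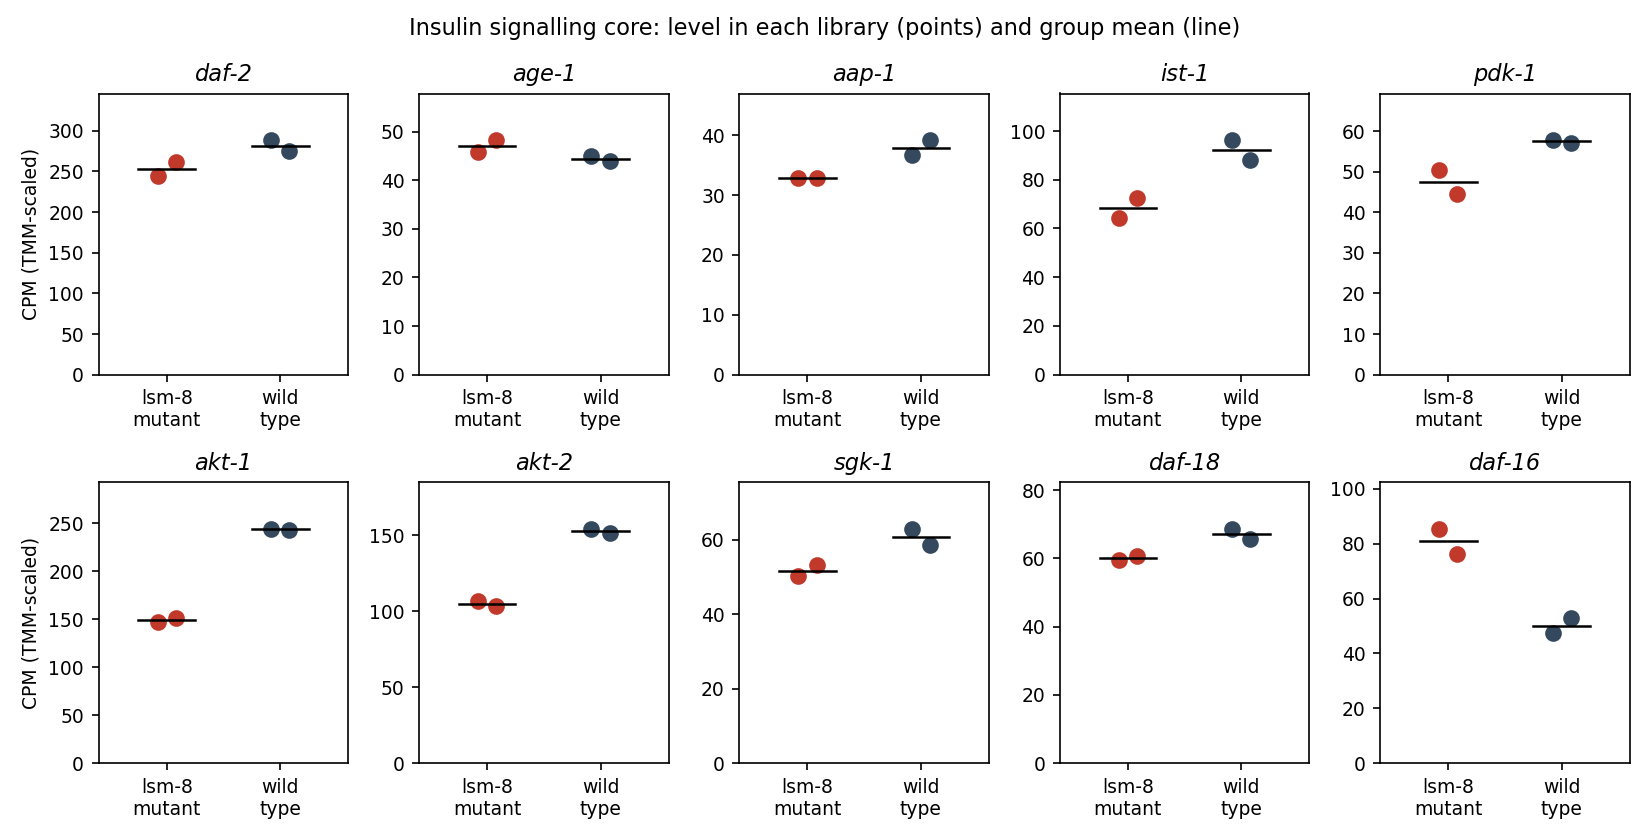
Level of each member of the insulin signalling core in CPM (vertical axes, each from 0) in the 2 lsm-8 mutant libraries (left, red) and the 2 wild-type libraries (right, dark), with the group mean as a line. The mutant points lie below the wild-type points for 8 genes and above them for age-1 and daf-16; for age-1 and daf-18 the difference was not called.

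At the receptor, daf-2 (WBGene00000898, chromosome III) was close to the threshold. It had 244 and 261 CPM in mutant libraries, against 288 and 275 CPM in wild-type libraries. The gap between genotypes was thus little wider than the gaps between libraries of 1 genotype, which were 7.07% in the mutant and 4.65% in wild type. Its level fell by 10.4% (log2 fold change -0.16, SE 0.06, 95% interval -0.28 to -0.04, adjusted p = 0.0464). It did not pass without mutant replicate 1 (adjusted p = 0.277), wild type replicate 1 (0.273) or wild type replicate 2 (0.0526), with library totals as the only scaling (0.191), and with the authors' deposited log2 values (0.189), DESeq2 size factors (0.0526), DESeq2 (0.0510) or the replicate number as a block (0.119). It was kept at a log2 fold change of -0.26 with a correction for gene length (adjusted p = 0.00133).

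The adaptor gene ist-1 (WBGene00002163, chromosome X) encodes a homolog of the insulin receptor substrates, which link the receptor to phosphoinositide 3-kinase in mammals. It had 64.2 and 72.4 CPM in mutant libraries, against 96.2 and 88.1 CPM in wild-type libraries. Both mutant libraries were below both wild-type libraries, and the level fell by 25.9% (adjusted p = 8.49e-05, log2 fold change -0.43, SE 0.07). It was called in all 13 alternatives, with values from -0.52 to -0.35. Relative to daf-2, ist-1 was lower in the mutant as well. The ratio of their levels per length was 0.477 and 0.502 in mutant libraries, against 0.604 and 0.579 in wild-type libraries.

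The kinase subunits that make the lipid messenger did not move alike. The catalytic subunit gene age-1 (WBGene00000090, chromosome II) had 45.7 and 48.2 CPM in mutant libraries, against 44.9 and 44.0 CPM in wild-type libraries. The log2 fold change of age-1 was 0.08 (SE 0.06, adjusted p = 0.390), with an interval from -0.05 to 0.21. A rise of more than 0.21 or a fall of more than 0.05 on the log2 scale therefore lies outside that interval, and no alternative called the gene. The regulatory subunit gene aap-1 (WBGene00000001, chromosome I) had 32.8 and 32.9 CPM in mutant libraries, against 36.7 and 39.1 CPM in wild-type libraries. The fall of aap-1 was small (log2 fold change -0.21, SE 0.07, edgeR adjusted p = 0.0252). It did not pass without either mutant replicate (adjusted p = 0.0913 without replicate 1 and 0.0805 without replicate 2) or wild type replicate 2 (0.149), with library totals (0.0891), with the deposited log2 values (0.0981) and with the replicate block (0.0654). The ratio of age-1 to aap-1 per length was 0.663 and 0.697 in mutant libraries, against 0.581 and 0.534 in wild-type libraries.

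The phosphatase gene daf-18 (WBGene00000913, chromosome IV) opposes that kinase. It had 59.4 and 60.8 CPM in mutant libraries, against 68.6 and 65.5 CPM in wild-type libraries. The log2 fold change was -0.16 (SE 0.06, interval -0.29 to -0.03), which did not pass the test after adjustment (adjusted p = 0.0583, unadjusted p = 0.0171). With the correction for gene length it was -0.22 and passed (adjusted p = 0.00777). It lies on the chromosome of lsm-8, where the median log2 fold change of 2658 genes tested was 0.09 and 580 genes rose against 241 that fell. Whether its chromosome bears on the value of daf-18 was not tested.

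Among the membrane-recruited kinases, both AKT genes fell. The gene akt-1 (WBGene00000102, chromosome V) encodes the protein kinase B homolog best known for restraining DAF-16 in dauer formation. It had 147 and 151 CPM in mutant libraries, against 244 and 243 CPM in wild-type libraries. Replicates of akt-1 differed by 3.04% in the mutant and by 0.381% in wild type, so the genotypes were separated far beyond their spread. Its level fell by 38.9% (log2 fold change -0.71, SE 0.05, interval -0.83 to -0.60, adjusted p = 1.30e-08), the largest fall of the 10. A smaller change in either direction was seen for 89.0% of all genes tested.

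The paralog akt-2 (WBGene00000103, chromosome X) had 107 and 103 CPM in mutant libraries, against 154 and 151 CPM in wild-type libraries. Here too both mutant libraries were lower, and the level fell by 31.3% (log2 fold change -0.54, SE 0.06, interval -0.66 to -0.42, adjusted p = 6.16e-07). Values over the 13 alternatives ran from -0.74 to -0.66 for akt-1 and from -0.57 to -0.49 for akt-2, and both genes were called in each. The ratio of akt-1 to akt-2 per length was 1.42 and 1.51 in mutant libraries, against 1.63 and 1.66 in wild-type libraries, a shift that was not tested. The intervals of the 2 log2 fold changes overlap.

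The related kinase gene sgk-1 and the upstream kinase gene pdk-1 fell less. PDK-1 phosphorylates and activates AKT and SGK kinases. Its gene pdk-1 (WBGene00003965, chromosome X) had 50.4 and 44.5 CPM in mutant libraries, against 57.7 and 57.2 CPM in wild-type libraries. The mutant libraries of pdk-1 differed by 13.2%, the widest gap between replicates among the members. The log2 fold change was -0.27 (SE 0.07, adjusted p = 0.00474), and with mutant replicate 2 left out it did not pass (adjusted p = 0.0892, log2 fold change -0.19).

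SGK-1 acts in the TOR complex 2 branch and beside the AKT kinases. The gene sgk-1 (WBGene00004789, chromosome X) had 50.2 and 53.1 CPM in mutant libraries, against 62.9 and 58.7 CPM in wild-type libraries. It fell by 0.24 on the log2 scale (SE 0.06, adjusted p = 0.00914), a call lost without mutant replicate 1 (adjusted p = 0.0776) or wild type replicate 1 (0.0785).

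At the end of the pathway, daf-16 (WBGene00000912, chromosome I), the FOXO gene, was the member that rose. It had 85.5 and 76.3 CPM in mutant libraries, against 47.5 and 52.8 CPM in wild-type libraries. The lowest mutant library was above the highest wild-type library, although replicates differed by 11.9% in the mutant and 11.1% in wild type. Its level was 61.3% higher (log2 fold change 0.69, SE 0.07, interval 0.54 to 0.84, adjusted p = 4.95e-07). Over the 13 alternatives the value ran from 0.61 to 0.77 and was called each time, with adjusted p-values up to 0.000450. The ratio of daf-16 to daf-2 per length was 0.491 and 0.409 in mutant libraries, against 0.231 and 0.268 in wild-type libraries. The annotation lists 11 transcripts of daf-16, and the counts are per gene, so isoforms were not told apart.

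**Figure D2:**
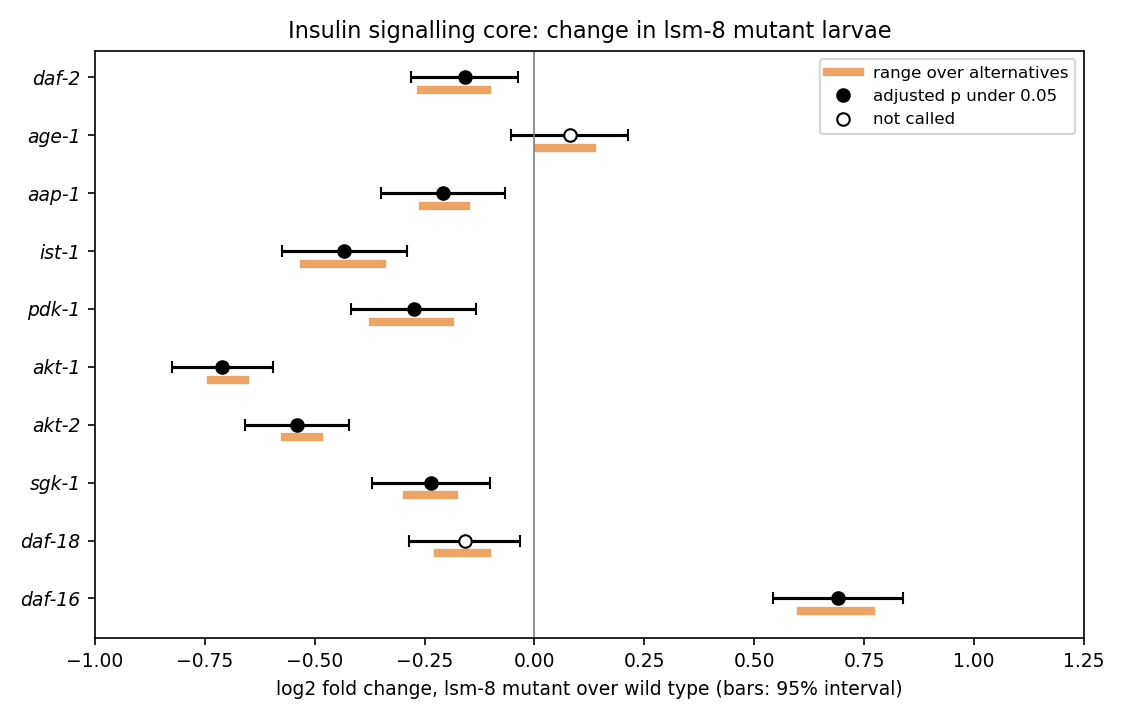
Log2 fold change of each member, lsm-8 mutant over wild type, with its 95% interval (black) and the range over 13 alternative settings (orange, below each interval); filled points passed an adjusted p of 0.05. The interval of daf-16 lies above 0, those of akt-1 and akt-2 lie furthest below it, and that of age-1 spans it.

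Levels of different genes were compared per length, as CPM per kilobase of the deposited gene width (RPKM). In mutant libraries akt-1 led with a mean of 64.02 RPKM, followed by akt-2 (43.8), daf-2 (40.9), sgk-1 (31.4), ist-1 (20.05), pdk-1 (19.7), daf-16 (18.4), aap-1 (18.3), daf-18 (17.9) and age-1 (12.5). In wild-type libraries the order was akt-1 (104.8 RPKM), akt-2 (63.8), daf-2 (45.7), sgk-1 (37.0), ist-1 (27.04), pdk-1 (23.8), aap-1 (21.2), daf-18 (20.01), age-1 (11.8) and daf-16 (11.4). Neighbours whose libraries overlapped were ist-1 with pdk-1, pdk-1 with daf-16 and daf-16 with aap-1 in the mutant, and age-1 with daf-16 in wild type. The leading 6 genes had the same order of means in both genotypes, and daf-16 stood in place 7 in the mutant and in place 10 in wild type. In wild type, akt-1 was above 94.8% of the genes tested on this scale and daf-16 above 58.9%. The other members lay between these.

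These places depend on the length used. The deposited width of daf-2 is 6170 bases, against 8296 bases for the union of its annotated exons, and that of daf-16 is 4408 against 3685 bases. With the exon union, daf-2 stood at 30.4 RPKM in the mutant and 33.97 RPKM in wild type, below sgk-1 in both. On the same length, daf-16 stood in place 5 in the mutant and place 9 in wild type, and age-1 was lowest in both genotypes. There ist-1 stood in place 9 in the mutant and place 6 in wild type, and pdk-1 in places 6 and 5. The leading 6 genes then no longer had the same order in both genotypes. The length does not enter the fold changes, except in the alternative with a correction for gene length.

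**Figure D3:**
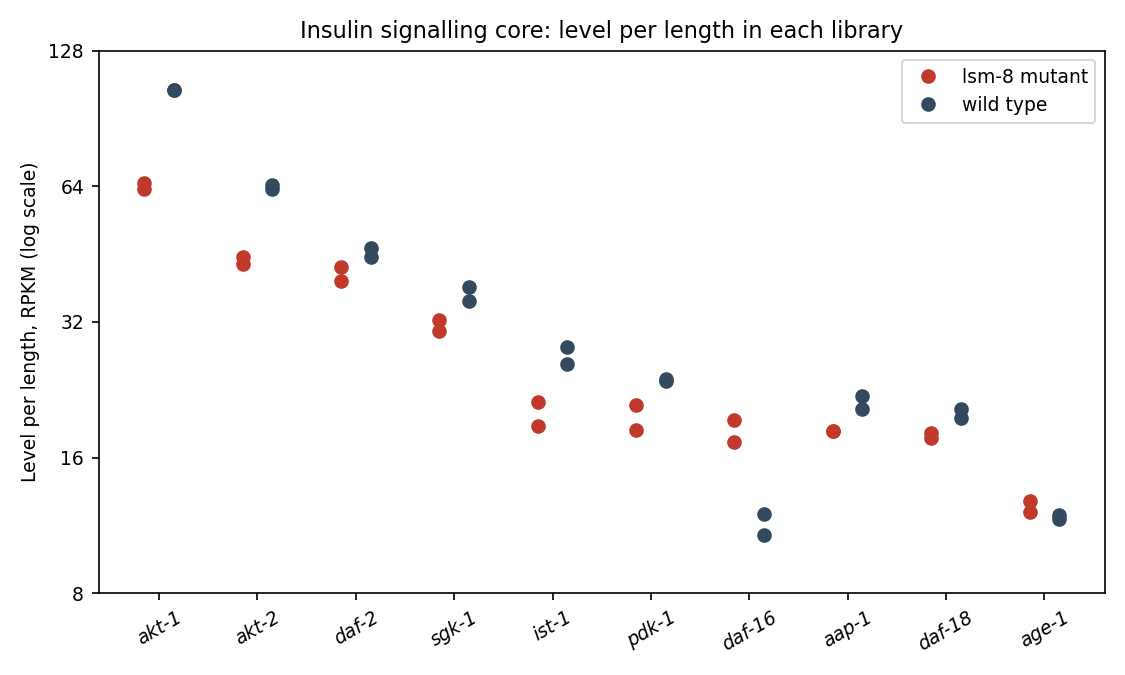
Level per length in RPKM (log axis) of the 10 members in each library, with lsm-8 mutant (red) left of wild type (dark), ordered by the mutant mean. Both AKT genes lead in both genotypes, from 104.8 RPKM for akt-1 in wild type, and daf-16 stands mid-order in the mutant (18.4 RPKM) and last in wild type (11.4 RPKM).

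All 10 members are protein-coding genes, and they are longer than most, from 1645 bases for sgk-1 to 6170 for daf-2, where the median gene has 1106. Long genes tended to be higher in the mutant. With genes under 5 CPM set aside, the median change on the log2 scale was 0.06 in the longest 20% and -0.11 in the shortest 20%, and it was 0.03 over the 4228 genes within the members' range of width. Of those 4228 genes, 973 were called higher and 708 lower, and the part of length in the members' falls was not tested. Members lie on 6 chromosomes, with 4 on X (ist-1, pdk-1, akt-2 and sgk-1), where the median of all genes tested was 0.00. The exons of 5 members overlap a gene on the other strand, and whether counting used strand is not given in the sources used here. The partner of akt-1 is rop-1, which overlaps it by 8 bases and had 140 and 174 CPM in mutant libraries, against 180 and 179 CPM in wild-type libraries (adjusted p = 0.119). Partners of age-1, aap-1 and pdk-1 reached at most 6.37 CPM in any library, and the partner of daf-16, a non-coding RNA gene, was not analysed here.

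Upstream of the receptor, the insulin-like peptide genes moved in both directions. Of the 39 found in the table, 30 were tested, and 9 fell, 3 rose and 18 did not pass, so 40% were called, against 28.2% of all genes tested. The peptide gene daf-28, an agonist of DAF-2 in dauer formation, rose to 8.22 ± 0.303 CPM in the mutant, against 4.81 ± 0.213 CPM in wild type (log2 fold change 0.78, adjusted p = 3.71e-05). Lower in the mutant were ins-27, at 8.67 ± 1.78 against 12.65 ± 1.504 CPM (adjusted p = 0.00574), and the agonist gene ins-6, at 2.96 ± 0.0520 against 3.96 ± 0.189 CPM (adjusted p = 0.0310). The call of ins-6 was lost in 8 of the 12 alternatives that tested it, among them without mutant replicate 1 (adjusted p = 0.0690), mutant replicate 2 (0.0963) or wild type replicate 2 (0.101). In these and the following values, ± gives the SD of 2 libraries.

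Enzymes of phosphoinositide metabolism outside the core, listed with the adaptor gene shc-1 and the Ras gene let-60, had 2 of 11 members higher and 3 lower, with a median of -0.04. The share called was 45.5%, close to the 44.9% among genes within the core's range of CPM. Those that fell were mtm-1 (log2 fold change -0.24, adjusted p = 0.00893) and mtm-3 (-0.17, adjusted p = 0.0378), both of the myotubularin lipid phosphatase family, and the inositol phosphatase gene ocrl-1 (-0.19, adjusted p = 0.0321). None of the 3 falls was called without mutant replicate 1, where this list had 2 calls, both higher. Over the 13 alternatives, mtm-3 and ocrl-1 were each not called in 6, among them without wild type replicate 1 (adjusted p = 0.156 for mtm-3 and 0.267 for ocrl-1). Those that rose were let-60 (0.40, adjusted p = 0.000203) and the synaptojanin gene unc-26 (0.36, adjusted p = 0.000538). Among the subunits of TOR complex 2, which activates SGK-1, and of the phosphatase PP2A, which dephosphorylates AKT-1, 1 of 8 rose and 0 fell, or 12.5% called, below the 28.2% of all genes. The PP2A catalytic subunit gene let-92 was higher (0.29, adjusted p = 0.00138). In contrast, rict-1, which encodes the defining subunit of TOR complex 2, had a value of 0.08 (adjusted p = 0.381) and the PP2A regulatory subunit gene pptr-1 of 0.12 (adjusted p = 0.171). With library totals as the only scaling, this list had 3 calls, all higher (let-92, pptr-1 and pptr-2). None of the 5 eak and sdf-9 genes, known to act beside AKT-1 in dauer formation, was called, against 28.2% of all genes tested. There were 0 at an unadjusted p under 0.05, and 0 calls by DESeq2 or limma voom. All but eak-7 were low, with mutant means from 1.33 CPM (eak-3) to 3.39 CPM (eak-6). Their standard errors ran from 0.14 to 0.22 on the log2 scale, so small changes could be missed. Without wild type replicate 2, eak-7 was lower.

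Of 17 tested regulators and partners of DAF-16, 5 rose and 1 fell, with a median of 0.12. The share called, 35.3%, lay between the 28.2% of all genes and the 44.9% of genes within the core's range of CPM. The kinase gene unc-43, which encodes the calcium-dependent kinase CaMKII, rose to 284 ± 6.62 CPM in the mutant, against 216 ± 4.44 CPM in wild type (log2 fold change 0.40, adjusted p = 2.14e-05). The methyltransferase gene prmt-1 rose by 0.32 (adjusted p = 0.000274), and tax-6, jnk-1 and swsn-1 rose by 0.25 to 0.29, a call that jnk-1 lost without mutant replicate 2 (adjusted p = 0.0739). The AMP-activated kinase gene aak-2 fell (-0.31, adjusted p = 0.000314). The 14-3-3 genes, whose proteins hold phosphorylated DAF-16 in the cytoplasm, were not called, with ftt-2 at 0.17 (adjusted p = 0.0627) and par-5 at -0.05 (adjusted p = 0.612). The gene ftt-2 was called higher in 6 of 13 alternatives and par-5 in 0. With library totals or the deposited log2 values 9 members were higher and 1 lower.

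Among 7 transcription factors that share targets with DAF-16, 3 rose and 1 fell. That is 57.1% called in a short list, against 28.2% of all genes tested and 44.9% of genes within the core's range of CPM. The GATA factor gene of the gut, elt-2, rose 2.94-fold (adjusted p = 1.05e-09) and hlh-30, the TFEB homolog of lysosomal and autophagy control, rose 1.53-fold (adjusted p = 2.51e-07). The nuclear receptor gene daf-12 rose by 0.27 (adjusted p = 0.00402) and was not called without mutant replicate 1 (0.0726). The heat shock factor gene hsf-1 was lower by a small margin (-0.17, adjusted p = 0.0417), which did not pass once any single library was left out (adjusted p from 0.0792 to 0.145) or with library totals (0.153). Several of the genes that rose lie on chromosome IV, namely let-60, unc-26, let-92, unc-43, tax-6, jnk-1, hlh-30, dod-17, dod-22 and dod-24. Genes of that chromosome were higher in the median, as given beside daf-18. The part of the chromosome in these rises was not tested.

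Among genes known to respond to DAF-16, most called members of the list raised through it were lower in the mutant, and most called members of the list lowered through it were higher. Of 22 tested genes known as raised through DAF-16, 14 fell, 2 rose and 6 did not pass, with a median log2 fold change of -1.07. That is 72.7% called, against 28.2% of all genes tested and 44.9% of genes within the core's range of CPM. The list was drawn up with earlier results of these data known, which may raise this share. The largest falls were those of the small heat shock protein genes hsp-16.41, at 2.90 ± 0.414 CPM in the mutant against 46.6 ± 5.02 CPM in wild type (adjusted p = 2.78e-14), and hsp-16.2, at 4.20 ± 1.252 against 51.0 ± 2.64 CPM (adjusted p = 0.000123). These genes are also targets of HSF-1, and reads that match related hsp-16 genes may have been split. The related hsp-16.1 and hsp-16.48 each matched more than 1 gene by name and were left out. Chosen after their values were seen, the trehalose synthase genes tps-1 (-0.76, adjusted p = 5.20e-09) and tps-2 (-1.22), the transhydrogenase gene nnt-1 (-1.17) and the superoxide dismutase gene sod-3 (-1.11, adjusted p = 0.00917) fell as well. The call of sod-3 was lost without mutant replicate 2. This gene had few counts, 94 and 43 in mutant libraries (0.917 and 0.463 CPM), against 93 and 63 in wild-type libraries (1.75 and 1.26 CPM). Not called were mtl-2 (called lower in 9 of 13 alternatives), ctl-2, lea-1, dod-6, lys-8 and old-1. Those that rose were the lysozyme gene lys-7 (0.99, adjusted p = 4.54e-10) and the cell cycle inhibitor gene cki-1 (0.26, adjusted p = 0.0150). The call of cki-1 was lost without mutant replicate 2 (adjusted p = 0.150) or wild type replicate 1 (0.0906).

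Of 10 tested genes known as lowered through DAF-16, 6 rose, 1 fell and 3 did not pass, with a median of 0.40. That is 70% called, against 28.2% of all genes tested and 44.9% of genes within the core's range of CPM. The gene dod-19 rose to 372 ± 9.16 CPM in the mutant, against 159 ± 1.23 CPM in wild type (log2 fold change 1.23, adjusted p = 1.38e-11), and dod-22 rose 2.27-fold (adjusted p = 9.30e-10). Of the 6 that rose, dod-17, dod-22 and dod-24 lie on chromosome IV, and the part of the chromosome was not tested. The guanylyl cyclase gene gcy-6 fell (-0.95, adjusted p = 0.000744). Many of these genes also answer to food, heat or other factors, and both target lists were drawn up with earlier results of these data known, so neither measures DAF-16 activity.

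**Figure D4:**
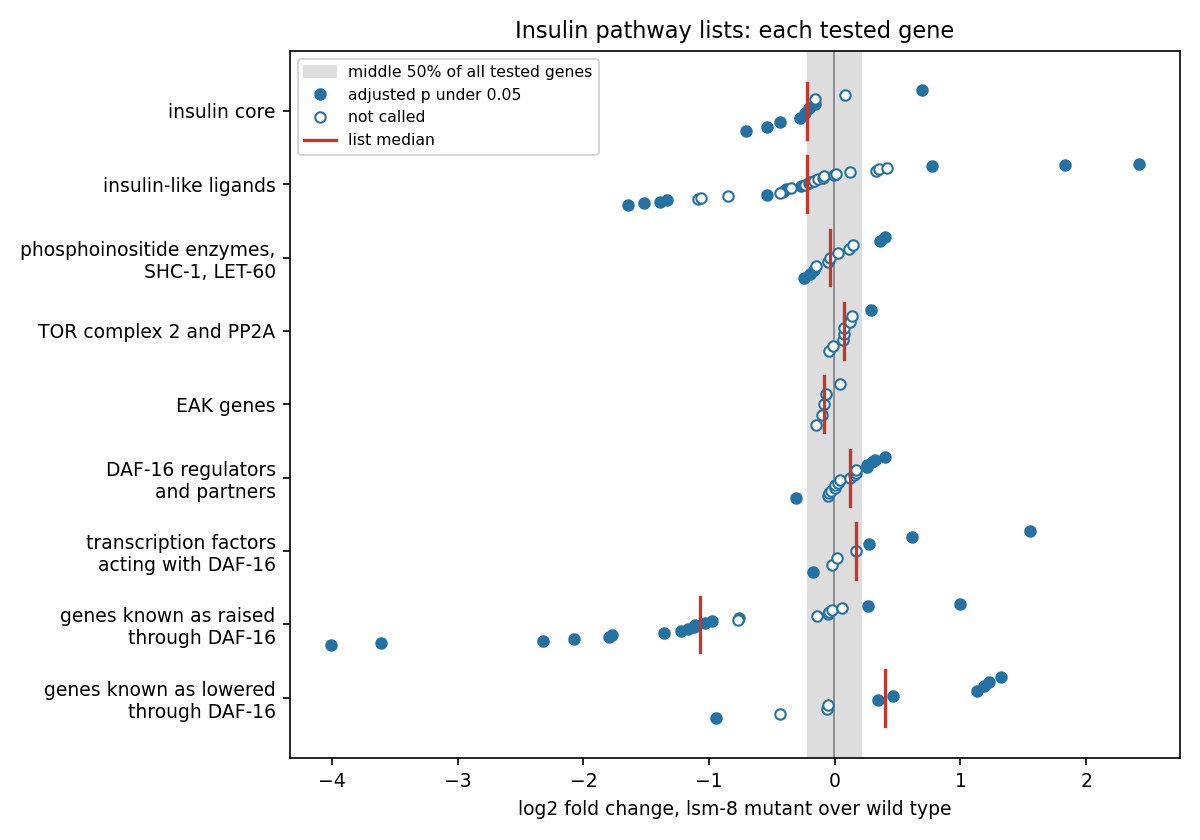
Log2 fold change (horizontal axis), lsm-8 mutant over wild type, of every tested gene in the insulin signalling core and in 8 lists around it (1 row per list; genes sorted within a row), with list medians in red and the middle 50% of all tested genes shaded (-0.21 to 0.21). The genes known as raised through DAF-16 extend to the left (median -1.07) and those known as lowered through it to the right (median 0.40). Both of these lists were drawn up with earlier results of these data known.

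Markers of some tissues differed between genotypes, and their part in the values above was not tested. The share of markers called was 62.5% for body wall muscle, 60% for pharynx, 55.6% for intestine and 50% for epidermis, against 28.2% of all genes, and it was 20% for neuron and 14.3% for germline. Most of these markers are well counted, and among all genes of at least 5 CPM the share was 39%. With lists this short, single genes shift these shares by a large step. Body wall muscle markers summed to 13743 and 14455 CPM in mutant libraries, against 11779 and 11737 CPM in wild-type libraries, with 5 of 8 higher and 0 lower. The myosin gene myo-3 (0.46, adjusted p = 9.90e-06) and the paramyosin gene unc-15 (0.33, adjusted p = 0.000269) led that list. The myosin gene unc-54, also called higher, had 6222 CPM in the mutant against 5024 CPM in wild type. The red marker of the mutant allele holds the unc54 3'UTR. Whether reads of the marker were counted for unc-54 was not tested. Intestine markers summed to 10603 and 10062 CPM in mutant libraries, against 9251 and 9347 CPM in wild-type libraries, with 4 of 9 higher, among them cpr-1 (0.87) and elt-2, and 1 lower, the metallothionein gene mtl-1 (-1.36), which is also a DAF-16 target. Neuron markers, where several core genes are known to act, summed to 2364 and 2421 CPM in mutant libraries, against 2261 and 2293 CPM in wild-type libraries, with 2 of 10 higher (rab-3 and unc-13) and 0 lower. Pharynx markers had 3 of 5 higher (myo-1 and pha-4 the most) and 0 lower, at 4152 and 4490 CPM in mutant libraries against 3671 and 3625 CPM in wild-type libraries. Epidermis markers had 2 of 6 higher (elt-3 and lin-26) and 1 lower (ajm-1), at 490 and 487 CPM in mutant libraries against 507 and 518 CPM in wild-type libraries. Germline markers had 1 of 7 lower (pgl-3) and 0 higher, at 84.7 and 83.1 CPM in mutant libraries against 89.4 and 85.7 CPM in wild-type libraries, while with library totals or the deposited log2 values the only call was gld-1, higher. Of these markers, rab-3 and ajm-1 were not called without wild type replicate 2, pha-4 was not without mutant replicate 2, unc-13 was not without mutant replicate 2 or either wild-type library, and pgl-3 was not without either mutant library or wild type replicate 1. The summed level of the 10 core genes was lower in the mutant, while the sums of muscle, intestine, neuron and pharynx markers were higher and those of epidermis and germline markers were lower. Such sums lean on the best-counted genes. In epidermis ajm-1 had 332 CPM in the mutant against 382 CPM in wild type, while the list's median log2 fold change was 0.17. In intestine asp-1, which was not called, had 6843 CPM in the mutant against 6247 CPM in wild type.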

How the data were processed

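The deposited count table holds raw counts of reads for each gene, as whole numbers, in 4 libraries, and a width per gene, taken as its length in bases. The second deposited table holds log2 values. They equal the log2 of the count, scaled to the mean library total, plus 8, to a relative deviation of 5.0e-15. Per the submitters' processing notes, Bowtie, edgeR 3.24.0 and ce10 were used, in roles not given in the sources used here. Per the labels' protocols, a stranded total RNA kit was read as single ends of 50 bases. Names came from the reference tables, for 19182 of 20392 genes, and chromosomes, exons and transcripts from the WBcel235 annotation. That is another build than ce10, so no coordinate is given.

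The fit was edgeR 4.0.16 in R 4.3.3 (quasi-likelihood F-test, TMM, filterByExpr, robust dispersions) on all 4 libraries, with Benjamini-Hochberg adjustment over 16771 genes and a threshold of 0.05. Standard errors and 95% intervals derive from the F statistic. Alternatives used DESeq2 1.42.0, limma 3.58.1 (voom, and limma-trend on the deposited log2 values), other scalings and filters, a loess correction for gene length, the replicate block and each library left out. Scripts were tested on simulated data. Intervals cover the spread between libraries, and replicates of 1 genotype differed by more than counting noise.

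The members and lists were chosen with earlier results of these data known. Of 190 list entries, 184 were matched in the table. Outside the core, text names up to 2 called members with the largest rise and 2 with the largest fall per list, at a mean of at least 1 CPM, and other genes named were chosen after their values were seen. Promoter and protein sequences were not analysed here.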

Additional observations from a re-analysis of the deposited data

How the results depend on the processing

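No log2 fold change among the 44 genes recomputed changed sign in 570 refits under 13 alternatives, and 512 kept their side of the threshold, 57 lost it and 1 (daf-18, with the length correction) gained it. The 44 genes were the 10 members, lsm-8 and the called genes with the largest changes in each other list. The refits used the same libraries, so a kept sign was likely from the start for genes chosen this way. All genes together gave 3655 to 4824 calls, against 4737, of which 60.5% were higher when scaled by library totals and 60.7% on the deposited log2 scale, against 47.7%. Leaving out 1 library gave 3801 to 4380. The core had 6 to 9 members called in the fits with all libraries and 5 to 6 with 1 library left out, against 8. The replicate numbers were not shown to pair the libraries (correlation of deviations -0.0557 over 12514 genes). The replicate block gave 3655 genes and 6 core members (daf-2 and aap-1 lost), 3 phosphoinositide genes against 5, 1 neuron marker against 2, 3 muscle markers against 5 and 0 germline markers against 1. Only genes of at least 5 CPM gave 5 of 10 tested peptide genes, against 12 of 30, and 2 germline markers. Library totals gave 3 and the deposited log2 values 2 genes of TOR complex 2 and PP2A, against 1, and each gave 10 DAF-16 regulators, against 6. The length correction gave 2, 1 and 2 genes for TOR complex 2 and PP2A, neuron and germline, and DESeq2 gave 0 germline markers. Leaving out 1 library gave 2 to 5 phosphoinositide genes, 0 to 1 eak genes, 1 to 3 neuron, 3 to 4 muscle, 1 to 3 pharynx and 0 to 1 germline markers. The cause of these moves was not tested. With 1 library left out, the lone library of its genotype was assumed to vary like the other group. With 2 libraries a group, replicate spread limits precision, and for genes of few counts depth does too.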
